A study of Mus musculus with 6 samples.

Results

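The 8 genes described here encode the class II and class IV histone deacetylases together with HDAC8, namely Hdac4, Hdac5, Hdac6, Hdac7, Hdac8, Hdac9, Hdac10 and Hdac11. They were taken by name from the 24513 gene rows of the count tables, and all 8 passed the filter on low counts. Total RNA of mouse hypothalamus was sequenced in 3 libraries of wild-type (WT) genotype and 3 of NS-DADm genotype, all C57BL/6 and 3 to 4 months old. The labels do not say whether each library is a separate animal, so p-values measure the spread between these libraries, which may be technical. What NS-DADm stands for is background on this line that the labels leave out: corepressor proteins are mutated in all tissues, in the domain through which they bind and activate HDAC3. No other allele or treatment is given for either genotype. The comparison addresses how transcript levels in hypothalamus differ when this domain is mutated.

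Histone deacetylases remove acetyl groups from lysines, on histones and on many other proteins. Class IIa members (HDAC4, HDAC5, HDAC7 and HDAC9) have little catalytic activity of their own. They bind MEF2 transcription factors and also the corepressor complex of HDAC3, and leave the nucleus when calcium-dependent or other kinases phosphorylate them and 14-3-3 proteins capture them. The class IIb enzyme HDAC6 works mostly in the cytoplasm, where it deacetylates tubulin, and HDAC10, of the same class, deacetylates polyamines. HDAC8 is a class I enzyme that works outside that complex and deacetylates the cohesin subunit SMC3. HDAC11, the only class IV member, removes long fatty acyl groups from lysines.

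The stretches of DNA before the start sites of 3 of these genes are shown because they show how the members differ in base composition and in the motifs found. Each is the 250 bases upstream of the RefSeq start site (GRCm38.p6, minus strand, 5′ to 3′). Capitals mark GGGCGG (the GC box) in Hdac4, the MEF2 motif in Hdac5 and TATAAA (the TATA box) in Hdac9.
Hdac4, chr1:92180342-92180591: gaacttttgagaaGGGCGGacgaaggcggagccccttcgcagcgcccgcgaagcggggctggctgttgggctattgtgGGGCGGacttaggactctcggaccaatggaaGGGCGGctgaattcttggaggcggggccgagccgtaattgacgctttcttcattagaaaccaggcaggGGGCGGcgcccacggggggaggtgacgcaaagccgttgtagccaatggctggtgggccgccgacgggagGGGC
Hdac5, chr11:102230173-102230422: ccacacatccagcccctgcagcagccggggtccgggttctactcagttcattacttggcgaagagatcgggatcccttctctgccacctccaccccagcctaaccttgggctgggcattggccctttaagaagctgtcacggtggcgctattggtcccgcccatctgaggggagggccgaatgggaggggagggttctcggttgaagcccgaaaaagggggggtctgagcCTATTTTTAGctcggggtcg
Hdac9, chr12:34917096-34917345: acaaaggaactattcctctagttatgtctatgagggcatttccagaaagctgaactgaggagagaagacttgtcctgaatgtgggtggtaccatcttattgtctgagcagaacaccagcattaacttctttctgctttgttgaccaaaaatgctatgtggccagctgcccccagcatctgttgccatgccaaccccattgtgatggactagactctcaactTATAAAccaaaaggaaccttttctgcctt

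Windows of 300 bases (250 before and 50 after the start) from RefSeq were matched for 7 of the 8 members, 11 windows in all, and the start site of Hdac10 was not analysed here. The Hdac4 window had 32 CG dinucleotides, more than 90.5% of the 32841 RefSeq promoter windows, and 5 GC boxes, the last of which runs past the start site. The Hdac6 window had 20 CG dinucleotides and also 5 GC boxes, and the windows of Hdac5 and Hdac11 had 18 and 22 and 1 GC box each. At the other end, the 2 Hdac9 windows had 0 and 3 CG dinucleotides and no GC box, against a median of 7 CG dinucleotides over all windows. The Hdac8 window had 6, and the 4 windows of Hdac7 ranged from 5 to 35.

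Motifs were searched on both strands. The GC box was in 35.7% of all windows, the TATA box in 13.6%, the CCAAT box (CCAAT) in 37.4%, the E-box (CANNTG) in 72.3% and the short cyclic AMP response element (CRE) motif (TGACG) in 20.8%. The MEF2 motif was in 3.19% of windows and in 1 member window, that of Hdac5, at -20 to -11 from the start. TATAAA lay at -29 to -24 in the first Hdac9 window and at -151 to -146 in that of Hdac8. CCAAT boxes were found 2 times each in the windows of Hdac4, Hdac5, Hdac6 and Hdac8 and 1 time in that of Hdac11. In the Hdac8 window the 2 CCAAT matches overlap each other and an E-box, and in that of Hdac5 the GC box shares 1 base with an E-box. E-boxes were in 8 of the 11 windows and short CRE motifs in those of Hdac4, Hdac5 and Hdac11. Of the other motifs searched, TGACGTCA (1.79% of windows), CCGGAAG (8.86%) and an NRF1-like motif (6.23%) were in no member window, and TAGGTCA (2.61%) was in the second Hdac9 window. These are matches of letters only.

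The libraries held 24.2 M to 27.6 M reads on genes (M for 1e6), and 15894 genes were tested. Levels are reads per 1e6 library reads (CPM), and edgeR's quasi-likelihood test with Benjamini-Hochberg (BH) adjustment over all genes tested called a change at an adjusted p under 0.05. Libraries stood apart in marker genes of neighbouring tissues. The 15 thalamus markers summed to 1338 to 1780 CPM in WT and 999 to 1103 CPM in NS-DADm libraries, and 6 of the 15 were called lower. Anterior pituitary markers, 8 of 10 tested, summed to 40.4 to 112 CPM in WT, to 203 and 200 CPM in NS-DADm 1 and 3 and to 2018 CPM in NS-DADm 2. The 9 hypothalamus markers were all present, at 657 to 717 CPM in WT and 681 to 801 CPM in NS-DADm libraries, with 8 fitted above 0 and 1, Trh, called higher. In bulk tissue, fewer cells of a type and less RNA per cell cannot be told apart.

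None of the 8 deacetylase genes passed the threshold, in a comparison where 0.654% of all tested genes did (0.0818% higher and 0.573% lower in NS-DADm). Hdac7 measured higher in all 3 NS-DADm libraries than in any WT library (fitted fold 1.13) and Hdac9 lower (fitted fold 0.8998). These were the 2 members whose groups did not overlap, 25.0% of members against 16.8% of all tested genes, of which 7.86% lay higher and 8.93% lower. They were also the 2 members with an unadjusted p under 0.05, as 10.9% of all tested genes had. Of the 8 log2 fold changes, 5 were above 0 and 3 below, against 51.6% of tested genes above 0. Their median was 0.029 and the median of their absolute values 0.074, beside 0.004 and 0.073 over all tested genes. The 95% intervals of the 8 fold changes ran from 0.826 at the lowest to 1.31 at the highest, so a change of 1.5-fold lies outside every one of them.

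**Figure D1:**
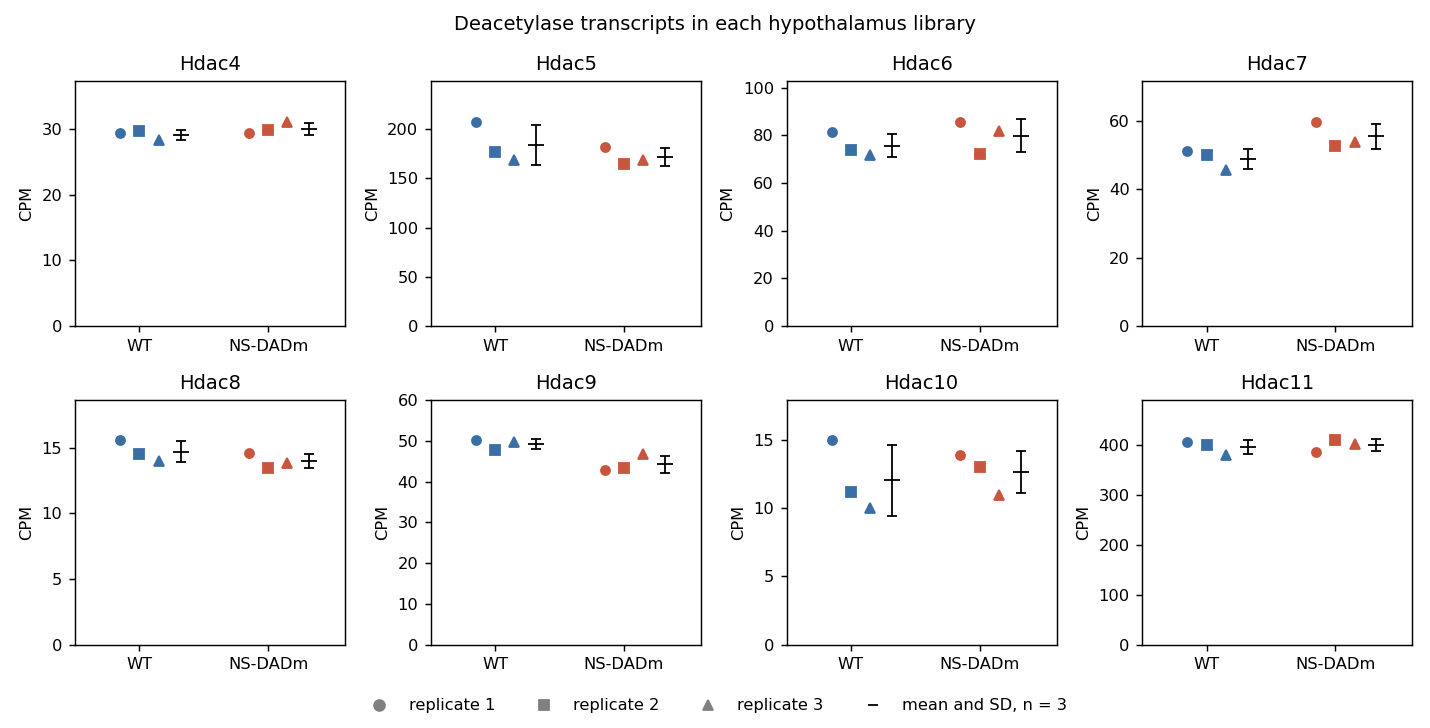
CPM of the 8 deacetylase genes in each library (points, WT in blue and NS-DADm in red), with the mean and SD of the 3 libraries of a group beside them, on axes that start at 0. Hdac7 at 52.7 to 59.8 CPM in NS-DADm libraries lies above the 45.7 to 51.2 CPM of WT, Hdac9 at 42.8 to 46.7 CPM lies below 47.8 to 50.2 CPM, and the other 6 genes overlap between groups.

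Among class IIa genes, Hdac7, which is known best from blood vessel endothelium and developing T cells, had the largest fitted difference of the family. It measured 51.2, 50.1 and 45.7 CPM in WT libraries 1 to 3, against 59.8, 52.7 and 54.0 CPM in NS-DADm libraries 1 to 3. The lowest NS-DADm library was 52.7 CPM and the highest WT library 51.2 CPM, so the groups are separated by a narrow gap, and NS-DADm 1 stood above the rest. The fitted change was 1.13-fold (log2 0.18 ± 0.065 SE, 95% interval 0.037 to 0.32; edgeR, unadjusted p = 0.0173, BH adjusted p = 0.323). Hdac7 lies on chromosome 15, 97792664 to 97844502 (GRCm38, as for all positions below, minus strand), and shares 29 exon bases with Slc48a1 on the other strand.

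Endothelial markers are given beside Hdac7 because of its known site of action. The 8 of them summed to 199, 163 and 164 CPM in WT libraries 1 to 3, against 165, 153 and 164 CPM in NS-DADm libraries 1 to 3, with 6 fitted below 0 and 2 above and none called. None of the 8 was at 0 reads.

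Hdac9, a MEF2 partner best known from muscle and heart that also yields a short form without the catalytic domain, measured 50.2, 47.8 and 49.8 CPM in WT libraries 1 to 3. In NS-DADm libraries 1 to 3 it measured 42.8, 43.4 and 46.7 CPM. All 3 NS-DADm libraries lay below all 3 WT libraries, with NS-DADm 3 nearest to WT. The fitted change was 0.8998-fold (log2 -0.15 ± 0.057 SE, 95% interval -0.28 to -0.028; edgeR, unadjusted p = 0.0200, BH adjusted p = 0.340). The summed thalamus markers also lay lower in NS-DADm libraries. When their mean log2 CPM entered the fit as a covariate, Hdac9 had a log2 fold change of -0.051 ± 0.133 SE (edgeR, BH adjusted p = 0.937). That mean ran from 5.706 to 6.374 in WT and from 4.971 to 5.263 in NS-DADm libraries, without overlap. Marker level and genotype therefore cannot be told apart in this fit. Hdac9 spans 870 kb of chromosome 12 (34047580 to 34917095, minus strand), the longest of the 8 genes, and the counts do not tell its transcript forms apart.

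The ratio of Hdac7 to Hdac9 CPM was 1.02, 1.05 and 0.918 in WT libraries 1 to 3, against 1.397, 1.22 and 1.15 in NS-DADm libraries 1 to 3. This ratio was chosen after the values of both genes were seen and is given without a test. The summed CPM of the 4 class IIa genes overlapped between groups, at 338, 304 and 293 in WT libraries 1 to 3, against 314, 291 and 300.5 in NS-DADm libraries 1 to 3.

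Hdac5, studied in hypothalamus for its part in the control of feeding, was the class IIa gene with the most reads. It measured 207, 177 and 169 CPM in WT libraries 1 to 3, against 182, 165 and 169 CPM in NS-DADm libraries 1 to 3. WT 1 stood above the other 5 libraries, which overlapped. The fitted log2 fold change of -0.10 ± 0.072 SE was not past the threshold (edgeR, BH adjusted p = 0.684), and it was -0.006 without WT 1. Hdac5 lies on chromosome 11, 102194432 to 102230166, and its WT libraries varied by 11.01% (coefficient of variation) where counting alone gives 1.42%.

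Hdac4, a class IIa gene needed in neurons and in growing bone, was among the steadiest of the family. Its level was 29.4, 29.8 and 28.4 CPM in WT libraries 1 to 3, against 29.4, 29.9 and 31.2 CPM in NS-DADm libraries 1 to 3. The groups overlapped and the log2 fold change was 0.046 ± 0.060 SE (95% interval -0.084 to 0.18; edgeR, BH adjusted p = 0.858). Its coefficients of variation of 2.52% in WT and 3.04% in NS-DADm were below the 3.56% that counting alone gives. Hdac4 lies on chromosome 1, 91928779 to 92195699, and 22.4% of its annotated exon bases overlap the noncoding gene Gm26720 on the other strand, which has no row in the count tables.

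In class IIb, Hdac6, the tubulin deacetylase gene (chromosome X, 7930120 to 7947889), measured 81.5, 73.9 and 72.0 CPM in WT libraries 1 to 3. In NS-DADm libraries 1 to 3 it measured 85.7, 72.1 and 81.9 CPM. The groups overlapped, and the log2 fold change was 0.076 ± 0.070 SE (edgeR, BH adjusted p = 0.775). It was 0.15 without NS-DADm 2, the library with the most pituitary marker reads, and 0.024 without NS-DADm 1. Hdac6 shares 169 bases at 92.9% identity with Glb1l2. By the same measure (at least 90% identity over 100 bases), 5 of the 8 members matched no other gene. Hdac4 and Hdac11 matched Gm26720 and Gm44002, which overlap them on the other strand and so are not copies elsewhere.

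Hdac10, the polyamine deacetylase gene (chromosome 15, 89123307 to 89128700), was the most variable member. It measured 14.99, 11.18 and 9.999 CPM in WT libraries 1 to 3, against 13.95, 13.03 and 10.95 CPM in NS-DADm libraries 1 to 3, on 264 to 410 reads. Its coefficient of variation was 21.6% in WT and 12.1% in NS-DADm, where counting alone gives 5.53% and 5.51%. The log2 fold change of 0.067 ± 0.15 SE (95% interval -0.26 to 0.40; edgeR, BH adjusted p = 0.928) became 0.26 without WT 1 (BH adjusted p = 0.263) and -0.051 without WT 3.

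Hdac8, the class I member (chromosome X, 102284639 to 102505359), measured 15.58, 14.51 and 14.01 CPM in WT libraries 1 to 3. In NS-DADm libraries 1 to 3 it measured 14.61, 13.5 and 13.88 CPM. The groups overlapped, and the log2 fold change was -0.072 ± 0.080 SE (edgeR, BH adjusted p = 0.829). The spread of its libraries, 5.43% in WT and 4.01% in NS-DADm, was close to the 5.01% and 5.23% of counting alone, so depth limits the precision of this gene.

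Hdac11, the class IV gene (chromosome 6, 91156665 to 91174692, plus strand), had the most reads of all members, 9428 to 11298 per library. It measured 405.96, 400.45 and 380.01 CPM in WT libraries 1 to 3, against 385.74, 409 and 401.79 CPM in NS-DADm libraries 1 to 3. The groups overlapped and the fitted change was 1.01-fold (95% interval 0.940 to 1.08; edgeR, BH adjusted p = 0.963). Of its exon bases, 15.4% overlap Gm44002 and 2.49% overlap Gm14573, both on the other strand and without a row in the tables.

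Hdac11 is known to be strongly transcribed in oligodendrocytes, the myelin-forming cells. Their 12 markers summed to 5465, 5728 and 5308 CPM in WT libraries 1 to 3, against 5200, 5344 and 4651 CPM in NS-DADm libraries 1 to 3. Of these markers 11 were fitted below 0, and 1 of them, Ugt8a, passed the threshold. NS-DADm 3 had the lowest marker sum and an Hdac11 level of 402 CPM, above 2 of the 3 WT libraries. NS-DADm 1 and WT 3 had the next lowest sums, 5200 and 5308 CPM, and the lowest Hdac11 levels, 386 and 380 CPM. The part of oligodendrocyte content in the Hdac11 levels was not tested.

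Within the WT group the members ranked the libraries alike. WT 1 was the highest WT library for 7 of the 8 genes (all but Hdac4) and WT 3 the lowest for 7 (all but Hdac9), whereas 39.8% of all tested genes were highest in WT 1 and 31.0% lowest in WT 3. The summed CPM of the 8 genes was 856, 804 and 769 in WT libraries 1 to 3, against 814, 799 and 809 in NS-DADm libraries 1 to 3. In the NS-DADm group 5 members were highest in NS-DADm 1, beside 36.1% of tested genes. WT 1 also had the largest sum of thalamus, endothelial and oligodendrocyte precursor markers, and the smallest of hypothalamus, astrocyte and anterior pituitary markers. WT 3, the lowest WT library for most members, lay above WT 2 in thalamus markers (1568 against 1338 CPM) and in endothelial markers (164.3 against 162.5 CPM). It was the lowest WT library in oligodendrocyte precursor markers (213, 212 and 207 CPM in WT libraries 1 to 3). Mature oligodendrocyte markers were also lowest there (5465, 5728 and 5308 CPM). In anterior pituitary, astrocyte, microglia and neuron markers WT 3 was the highest WT library. The part of tissue makeup in this pattern was not tested.

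To compare the genes with each other, levels were divided by the length of all annotated exons of a gene (CPM per kb). On this scale Hdac11 stood far above the other members, at 103 ± 3.6 CPM per kb in WT (mean ± SD, n = 3), 4.89-fold above Hdac5 and 55.6-fold above Hdac4. It made up 65.9% of the summed level per kb of the 8 genes. Hdac5 came next at 20.99 ± 2.3, followed by Hdac6 at 13.0 ± 0.86 and Hdac7 at 7.25 ± 0.43 CPM per kb. None of these 4 overlapped the next member above or below it in any library.

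The lower 4 members lay close together on the scale of CPM per kb. In WT, Hdac10 had 3.57 ± 0.77, Hdac9 3.36 ± 0.087, Hdac8 3.04 ± 0.17 and Hdac4 1.85 ± 0.047 CPM per kb. Hdac10 spanned 2.96 to 4.44 and so overlapped both Hdac9 and Hdac8. The ranges of Hdac9 and Hdac8 were apart in WT (3.26 to 3.42 and 2.90 to 3.22) and overlapped in NS-DADm (2.92 to 3.19 and 2.79 to 3.02). The order of the 8 genes by mean was the same in both groups.

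**Figure D2:**
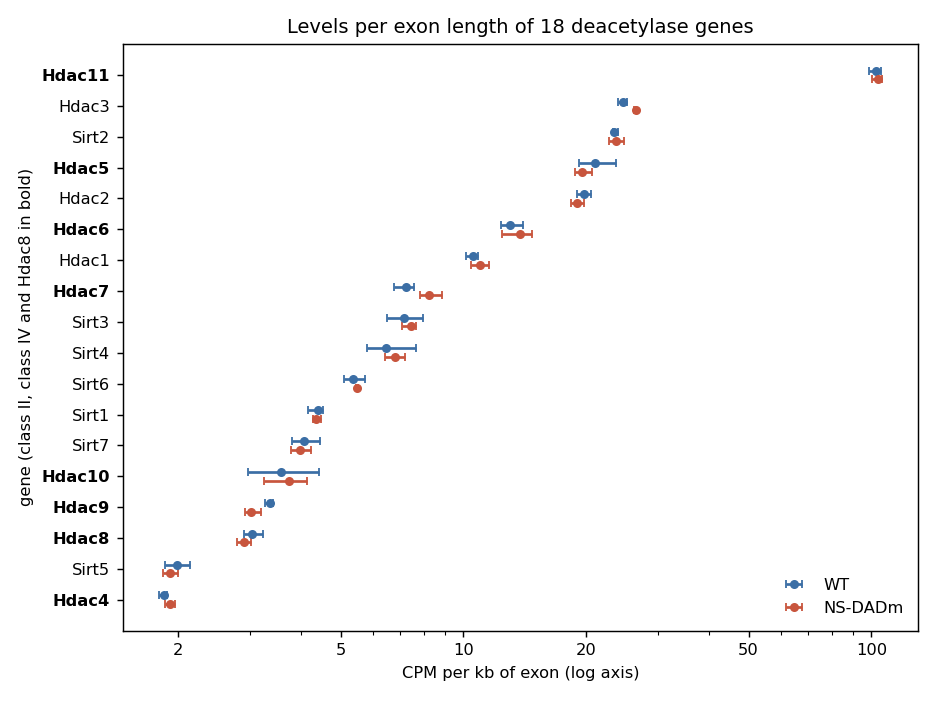
Mean CPM per kb of exon on a log axis for the 8 members (bold) and the other 10 deacetylase genes, with whiskers from the lowest to the highest of the 3 libraries, WT in blue and NS-DADm in red. Hdac11 stands alone near 103 CPM per kb, and Hdac4 is the lowest of the 18 at 1.85 in WT on this scale. With the longest coding length Hdac10 is the lowest.

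Among all 18 deacetylase genes Hdac11 was also the highest. By the length of all annotated exons it was 4.18-fold above Hdac3, the next, at 24.6 ± 0.65 CPM per kb in WT. Hdac5, at 19.3 to 23.6 CPM per kb in WT libraries, overlapped Hdac2 (19.0 to 20.5) and Sirt2 (23.2 to 23.9), which encodes a cytoplasmic tubulin deacetylase. Within the members, the order of the lower ones also depends on the length used. With the longest transcript the order from the fifth place was Hdac8, Hdac9, Hdac10 and Hdac4, and with the longest coding length it was Hdac9, Hdac8, Hdac4 and Hdac10, while the first 4 places stayed as they were.

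The other deacetylase genes held no call. Hdac3, for the deacetylase of the complex that class IIa members bind, averaged 99.6 ± 2.6 CPM (WT, SD, n = 3) against 107 ± 0.63 CPM (NS-DADm, SD, n = 3), without overlap (log2 0.10 ± 0.046 SE; edgeR, BH adjusted p = 0.433). Of the other class I genes, Hdac2 had a log2 fold change of -0.059. None of the 7 sirtuin genes, which encode the NAD-dependent deacetylases, passed the threshold either, with a median log2 fold change of 0.014 and log2 fold changes of 0.055 for Sirt3 and 0.074 for Sirt4, the 2 with the smallest p-values.

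MEF2 factors, the DNA-binding partners of class IIa deacetylases, held the only called gene among the lists of partners. Mef2a measured 175, 157 and 182 CPM in WT libraries 1 to 3, against 131, 113 and 125 CPM in NS-DADm libraries 1 to 3. The groups lay well apart, and Mef2a was called lower, at 0.718 of its WT level (log2 -0.48 ± 0.065 SE; edgeR, BH adjusted p = 0.00805), in a comparison in which 0.573% of tested genes were called lower. Mef2c measured 52.7, 39.9 and 53.7 CPM in WT libraries 1 to 3, against 40.3, 32.3 and 37.0 CPM in NS-DADm libraries 1 to 3, overlapping through WT 2, and did not pass the threshold (log2 -0.42 ± 0.12 SE; edgeR, BH adjusted p = 0.249). It was called lower without WT 2 (log2 -0.54; edgeR, BH adjusted p = 0.00516), and with all libraries by DESeq2 (BH adjusted p = 0.00972). Mef2d had group means of 81.4 ± 3.7 and 81.4 ± 2.6 CPM (log2 -0.001). Mef2b had at most 1 read and was not tested.

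Mef2a lost its call when WT 3 was left out (edgeR, BH adjusted p = 0.0541), and likewise NS-DADm 2 (0.0986) or NS-DADm 3 (0.0877), while its log2 fold change was -0.43, -0.42 and -0.49 in these fits. The call also ended with the thalamus marker mean as a covariate (log2 -0.19 ± 0.117 SE; edgeR, BH adjusted p = 0.648). In that fit Mef2c had a log2 fold change of 0.21, and 6 genes were called in all, against 104 without the covariate. The marker mean did not overlap between genotypes, so this fit cannot tell marker level and genotype apart. Thalamus markers were lower in the NS-DADm libraries, as given above, with 14 of 15 fitted below 0 and none at 0 reads. Mef2a shares 302 bases of identical sequence with the transcript of Lysmd4, so its reads over that stretch are uncertain. The same holds for Mef2d over 531 identical bases shared with 1700113A16Rik.

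**Figure D3:**
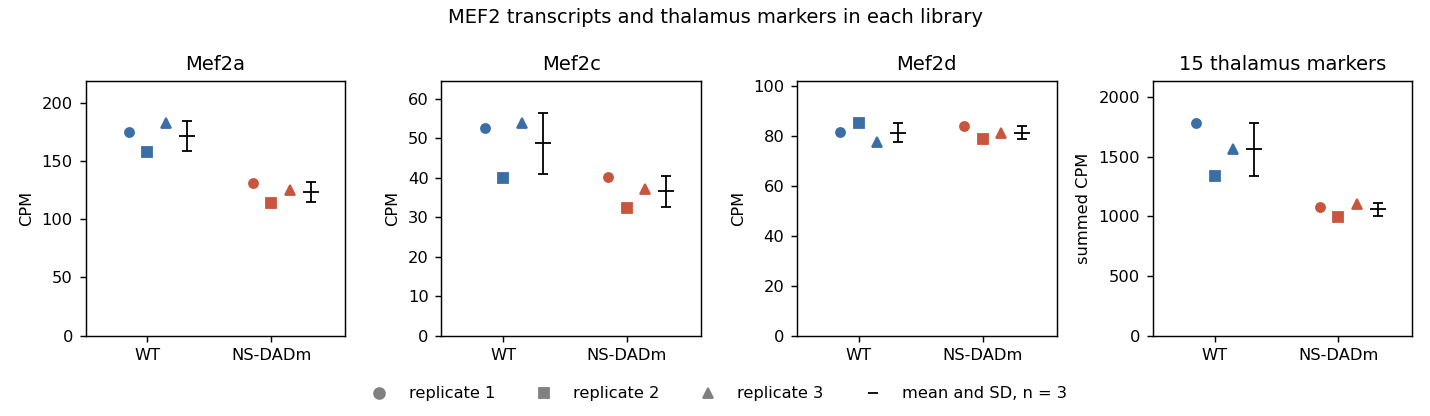
CPM of Mef2a, Mef2c and Mef2d and the summed CPM of 15 thalamus markers in each library (points, WT in blue and NS-DADm in red), with the mean and SD of 3 libraries, on axes that start at 0. Mef2a and the thalamus markers are lower in all 3 NS-DADm libraries, and Mef2d overlaps between groups.

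Kinases that send class IIa deacetylases out of the nucleus held no call. None of 16 passed the threshold, with 8 log2 fold changes above 0 and 8 below and a median of 0.003. The smallest p-values were those of Camk1g (log2 0.16) and Camk2a (log2 -0.13), both genes for calcium-dependent kinases (edgeR, BH adjusted p = 0.352 and 0.368). The 14-3-3 genes, whose proteins hold phosphorylated class IIa deacetylases in the cytoplasm, were fitted below 0 in 6 of 7 cases with a median of -0.094, and none passed. Ywhah measured 890.13, 844 and 879 CPM in WT libraries 1 to 3, against 773, 770.11 and 781 CPM in NS-DADm libraries 1 to 3 (log2 -0.17 ± 0.043 SE; edgeR, BH adjusted p = 0.113). Ywhaz had a log2 fold change of -0.18 (BH adjusted p = 0.132), and it is uncertain because a copy, Gm4202, is 99.9% identical over 733 bases. General neuronal markers, 5 in number and none called, also summed lower in NS-DADm, at 3430 to 3621 CPM in WT libraries against 3232 to 3247 CPM, and their part in the 14-3-3 values was not tested.

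Partners of the other members did not pass the threshold. Of 9 genes for HDAC6 substrates and partners, 6 were fitted below 0 (median log2 -0.052). The smallest p-values were those of the tubulin gene Tuba1a (log2 -0.15; edgeR, BH adjusted p = 0.181) and the chaperone gene Hsp90ab1 (log2 -0.10; BH adjusted p = 0.366). Tuba1a is uncertain because it is 98.3% identical to Tuba1b over 1357 bases, and Tuba1b had a log2 fold change of 0.025. Hsp90ab1 is likewise 90.8% identical to Gm6368 over 2174 bases. Cohesin genes, which encode the complex of the HDAC8 substrate SMC3 and its regulators, had the narrowest range of the partner lists with more than 1 tested gene, with 11 tested members between -0.037 and 0.055. Nipbl, for the cohesin loader, had a log2 fold change of 0.055 and Rad21, for a cohesin subunit, of -0.037.

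Of 11 polyamine genes, the pathway of the HDAC10 substrate, 10 were tested and 0 passed. Odc1, the first enzyme of polyamine synthesis, measured 107, 89.2 and 91.2 CPM in WT libraries 1 to 3, against 109, 116 and 111 CPM in NS-DADm libraries 1 to 3. The groups did not overlap but nearly met between WT 1 and NS-DADm 1 (log2 0.23 ± 0.066 SE; edgeR, BH adjusted p = 0.190). Without WT 1 Odc1 was called higher (log2 0.32; edgeR, BH adjusted p = 0.00121). Odc1 is uncertain because its transcript is 95.3% identical to Gm7993 over 1401 bases. Azin1, which encodes an activator of that enzyme, had a log2 fold change of -0.14 (BH adjusted p = 0.278). Shmt2, for a serine-glycine converting enzyme that HDAC11 acts on, had a log2 fold change of 0.019. Azin1 shares 359 identical bases with Gm49077, and Shmt2 shares 232 bases at 90.1% identity with Gm15544.

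**Figure D4:**
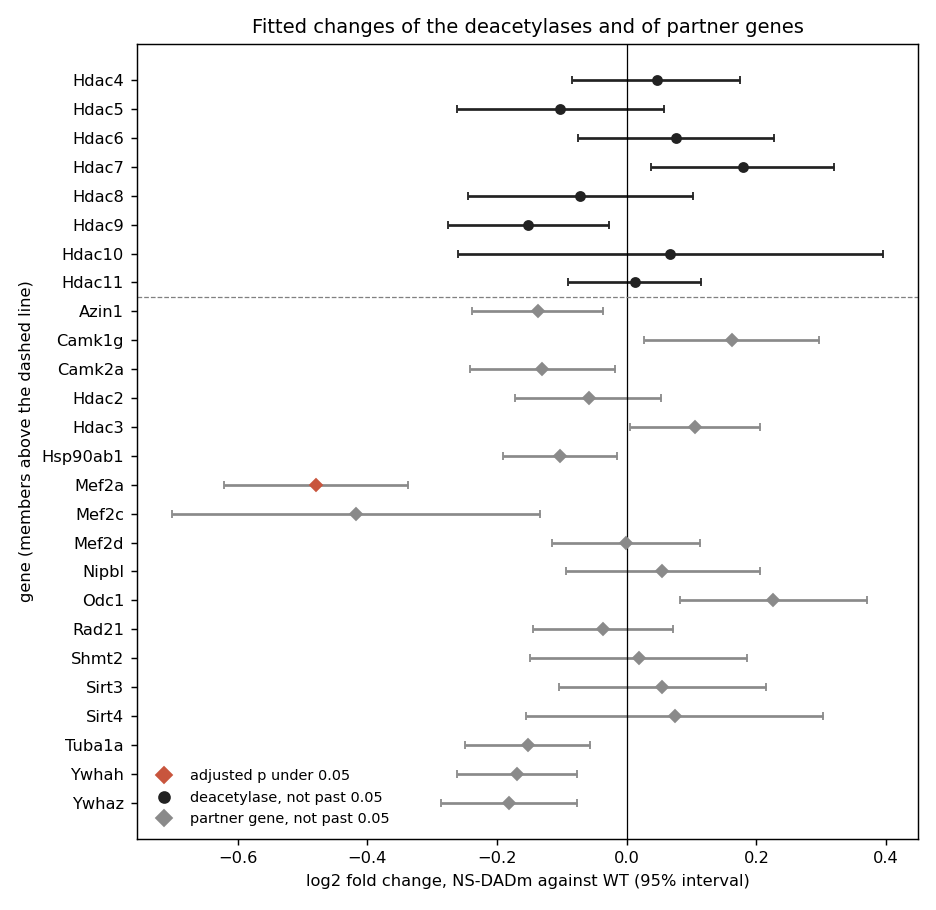
Fitted log2 fold change (NS-DADm against WT) with its 95% interval for the 8 members (circles, above the dashed line) and the partner genes named in the text (diamonds). The intervals of Hdac7 (0.037 to 0.32) and Hdac9 (-0.28 to -0.028) leave 0 out before adjustment for the number of genes, and Mef2a, in red, is the only gene past the threshold.

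Genes whose log2 CPM followed a member most closely over the 6 libraries are given as a description. The points share the same libraries and depths, and between 62 and 396 of 14533 other genes reached r above 0.9 with a member. For Hdac7 they were Stx2 and Pde2a (Pearson r = 0.996 each) and for Hdac9 Me1 (0.994) and Cs (0.991). For Hdac5 they were Plcb3 and Map7d1 (0.998 each), for Hdac4 Cmtm4 (0.982) and Cep135 (0.981), and for Hdac6 L3mbtl1 (0.995) and Syt15 (0.988). For Hdac8 they were Abca7 (0.993) and Gpr162 (0.992), for Hdac10 Ogfod2 (0.995) and Numbl (0.993), and for Hdac11 Atf6 (0.993) and Entpd6 (0.982).

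**Figure D5:**
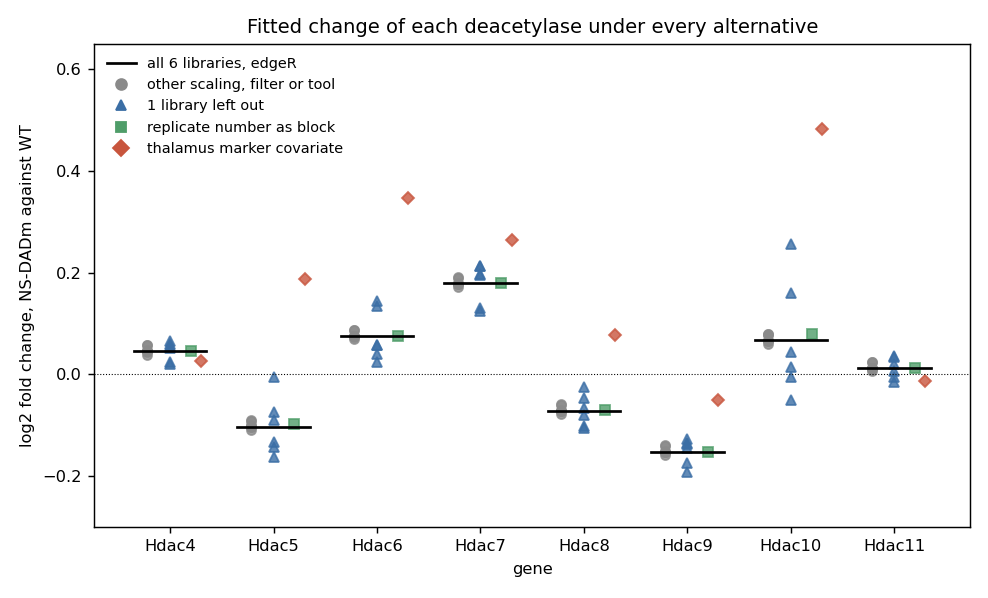
Log2 fold change of each member (NS-DADm against WT) with all 6 libraries (black line) and under 15 alternatives, namely other scalings, filters or tools (grey), each library left out (blue), the replicate number as a block (green) and a thalamus marker covariate (red). Hdac7 stays above 0 and Hdac9 below 0 in each, while Hdac5, Hdac8, Hdac10 and Hdac11 cross 0 in at least 1.

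Across the 15 alternatives none of the 8 members passed the threshold in any fit. Hdac7 stayed between 0.12 and 0.27 on the log2 scale, with BH adjusted p-values from 0.0938 without WT 1 (edgeR) to 0.654 without WT 3. Hdac9 stayed between -0.19 and -0.051, with BH adjusted p-values from 0.218 to 0.937. Without NS-DADm 2, the library with the most pituitary marker reads, Hdac7 had a log2 fold change of 0.21 and Hdac9 of -0.14. Hdac6 and Hdac10 reached their largest values, 0.35 and 0.48, with the thalamus marker covariate, where neither passed (edgeR, BH adjusted p = 0.440 and 0.661).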

How the data were processed

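Hypothalamus RNA was sequenced in 3 WT and 3 NS-DADm libraries, with 1 table of deposited read counts per library. Per the submitters' processing notes, the authors aligned reads with TopHat2 2.0.9 to mm10 and counted them with HTSeq; for its version, annotation and strand setting the sources used here give nothing, and overlapping and antisense genes cannot be told apart. Alignments that were not unique (14.3 to 16.5% of entries) were left out of gene rows, which lowers the counts of genes with near-identical copies. The last 5 rows, of unassigned reads, were dropped.

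Genes passing filterByExpr were scaled by TMM and tested with edgeR 4.0.16 in R 4.3.3 (quasi-likelihood F test, no covariate, BH adjustment over 15894 genes). SE is the absolute log2 fold change over the root of F, and 95% intervals from the t distribution on the test's degrees of freedom. The common biological coefficient of variation was 6.45%. Positions and lengths came from GENCODE M21 (GRCm38), sequences from RefSeq, and close copies (at least 90% identity over 100 bases) from BLAST 2.17.0. The fit was tested on simulated data. No pair of libraries within a group agreed within counting noise (chi-square per degree of freedom 3.30 to 9.98). Figures were drawn with matplotlib 3.10.9.

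Alternatives were other scaling factors, DESeq2 1.42.0, limma 3.58.1 voom, other count filters, each library left out, the replicate number as a block and a thalamus marker covariate. The thalamus covariate did not overlap between genotypes, so a fit with it cannot tell marker level and genotype apart. Named are all 8 members, the called genes of each reported partner list or else the list's 2 smallest p-values, and the 2 genes most alike in pattern to each member. Mef2c and Mef2d were named beyond this rule, to give that list whole, and so were Tuba1b, as a copy, and the called markers Ugt8a and Trh. Other marker lists are given by sums and counts. Wapl is listed under its older symbol. The members and lists were chosen with earlier results of these data known. Values of 1 partner list are not reported here.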

Additional observations from a re-analysis of the deposited data

How the results depend on the processing

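The number of genes called, 104 with all 6 libraries, was 282 with DESeq2, 203 with no count filter and 6 with the thalamus marker covariate, and it ran from 5 to 312 when each library was left out (edgeR). Leaving out WT 3 gave 10, NS-DADm 2 gave 5 and NS-DADm 3 gave 8, against 312 and 262 for WT 1 and WT 2. The cause was not tested. With the replicate number as a block it was 409. Deviations of same-numbered libraries correlated at 0.20, 0.13 and -0.024 across genes for numbers 1, 2 and 3. Libraries 1 and 2 correlated best with their own number and library 3 did not. With 3 libraries a group these correlations depend on each other, so they cannot decide whether the libraries are paired. The labels do not say that the numbers pair animals, so the main fit did not pair them. With this block no member was called, and Mef2c, Ywhah and Ywhaz were (BH adjusted p = 0.00145, 0.0294 and 0.0385).

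Of 120 member values under the alternatives, 0 were called and 7 changed sign. With the thalamus covariate Hdac5 was 0.19, Hdac8 0.077 and Hdac11 -0.013 on the log2 scale, beside Camk1g at -0.10, Mef2c at 0.21 and Nipbl at -0.16. With single libraries left out, Hdac10 ran from -0.051 to 0.26 and was -0.006 without NS-DADm 1, and Hdac11 from -0.016 to 0.037 and was -0.006 without NS-DADm 2. Likewise Nipbl ran from -0.024 to 0.100, Rad21 from -0.067 to 0.003, Shmt2 from -0.037 to 0.057, Sirt3 from -0.010 to 0.139 and Mef2d from -0.034 to 0.032. Mef2d, at -0.001, was 0.011 with upper-quartile factors, 0.012 with library totals and 0.000 with a minimum of 1 CPM. Of 270 partner values, 9 gained a call and 4, all of Mef2a, lost one. Besides the calls with the block, DESeq2 called Mef2c, Ywhah and Ywhaz (BH adjusted p = 0.00972, 0.0220 and 0.0377), and edgeR called Ywhaz without WT 1 (0.0470). Counting error is close to the whole spread between libraries for Hdac4 and Hdac8 and well below it for Hdac10. For Hdac9 counting alone gives 2.74% in WT, where the libraries varied by 2.59%, and 2.94% in NS-DADm, where they varied by 4.80%.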
